A study of Arabidopsis thaliana with 15 samples.

Results

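The mature miRNAs of prp4k3 leaves were compared with those of Col-0 leaves in a small RNA-seq count table. Every miRNA row of that table was taken, and rows with identical counts in all 6 small RNA libraries were kept once. Of 427 rows, 367 had a count and 309 of these were distinct. The series labels 15 samples in all, and its 2 tables together list 73621 rows. The series' design text gives prp4k3 plants as amiR-PRP4K3, where amiR commonly stands for an artificial miRNA, a designed miRNA that silences chosen genes. Col-0 is the wild-type accession. Plants of both groups were 3 weeks old and untreated, and leaves were collected. Each genotype had 3 small RNA libraries and 3 RNA-seq libraries. The genes that miRNA was designed against, its promoter, the number of independent lines and any pooling of plants are not given in the labels. The labels do not say whether replicates are separate plants, and the spread that p-values rest on may therefore be technical. The se-2 samples, 3 RNA-seq libraries, were not analysed here.

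Plant miRNAs are cut by DICER-LIKE1 from hairpin precursors transcribed from MIR genes, in a complex that includes the zinc-finger protein SERRATE (SE). Successive cuts release a duplex of a 5p and a 3p strand. One strand, the guide, is loaded into an ARGONAUTE protein and directs cleavage or repression of matching mRNAs, and the other strand is usually degraded. Many families are conserved among flowering plants and control transcription factors of leaf shape, growth phase and hormone response. Others are known from few species and are often expressed at low levels. The series' title names PRP4KA, a kinase, as acting on SE.

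The PRP4K kinase genes were read in the RNA-seq libraries, which held between 16041754 and 16955629 counts in prp4k3 and between 18305640 and 19344157 counts in Col-0. PRP4KA (AT3G25840) had 147, 129 and 139 counts in prp4k3, against 150, 143 and 126 counts in Col-0, or 6.42, 5.99 and 6.37 CPM in prp4k3, against 11.1, 9.70 and 9.33 CPM in Col-0, where CPM are counts scaled to a fixed library total and by trimmed-mean (TMM) factors and values are in the order of replicates 1, 2 and 3 throughout. The prp4k3 values lay below all Col-0 values in CPM, but not in counts. Its log2 fold change, prp4k3 over Col-0 and ± SE here and below, was -0.68 ± 0.13 (adjusted p = 0.00116), and 0.16 (adjusted p = 0.28) when libraries were scaled by total counts. PRP4KB (AT1G13350) had 3.54, 4.46 and 5.17 CPM in prp4k3, against 6.20, 5.23 and 6.07 CPM in Col-0. Its log2 fold change of -0.41 ± 0.18 missed the threshold (adjusted p = 0.0646), passed it without prp4k3 replicate 3 (-0.55, adjusted p = 0.0328), and lay at 0.43 (adjusted p = 0.0413) under total-count scaling. PRP4KC (AT3G53640) had 0 counts in all 6 libraries. SE (AT2G27100) had 39.3, 36.5 and 39.2 CPM in prp4k3, against 26.5, 31.5 and 32.7 CPM in Col-0, a log2 fold change of 0.34 ± 0.11 (adjusted p = 0.0233), and 1.19 (adjusted p = 9.1e-06) under total-count scaling. SE no longer passed after removal of the first Col-0 library (adjusted p = 0.0897), the first prp4k3 library (0.0697) or the third (0.0577). In the same RNA-seq libraries 5 leaf marker genes summed to between 13162 and 14204 CPM in prp4k3 and between 22479 and 27357 CPM in Col-0, scaled by total counts. Of 5 root markers PLT1 and RHD6 had no count, WOX5 and CASP1 had at most 4 counts in any library, and PHO1 made up nearly all of the sum. That sum, also scaled by total counts and without TMM factors, was 11.9 to 22.01 CPM in prp4k3 and 10.3 to 12.5 CPM in Col-0. On that same total-count scale the 5 flower markers AP1, AG, AP3, SEP3 and LFY summed to 2.12 to 8.61 CPM in prp4k3. Their sum was 0.273 to 0.620 CPM in Col-0, where SEP3 had no count.

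Small RNA libraries differed in depth. Distinct rows held 332891, 627847 and 292856 counts in prp4k3, against 1114863, 763082 and 1044216 counts in Col-0. A floor of 3 counts was 4.78 to 10.2 CPM in prp4k3 and 2.69 to 3.93 CPM in Col-0, without TMM factors and for counting error only. Identical rows formed 36 sets, of which 26 held members of a single miRNA number and 10 held unrelated miRNAs with at most 4 counts. A further 40 distinct rows fell into 16 sets of near-identical rows of a miRNA number, with counts that differed by at most 5% or 3 counts in every library. The 7 guide rows of miR166 were the largest such set. Reads shared by these rows may enter the totals above more than once. With near-identical rows kept once the totals were 224135, 361119 and 196614 counts in prp4k3, against 801831, 556066 and 743843 counts in Col-0. Near-identical rows are uncertain as separate miRNAs, and counts of rows overstate the number of independent ones. Sums over a family take every distinct row, so reads shared by near-identical rows may enter a sum more than once. Counts cover named miRNAs only, so levels are relative to the other miRNAs, and fewer miRNA-producing cells and less miRNA per cell cannot be told apart.

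The library labelled prp4k3 replicate 2 stood apart from the other two. Among 130 miRNAs over 100 CPM, its level differed by a median of 0.49 on the log2 scale from the mean of the other prp4k3 libraries, against 0.24 for replicate 1 and 0.30 for replicate 3, and 0.086 to 0.17 for Col-0 libraries. More than 2-fold differences were seen for 20 of the 130 in that library and for at most 3 in any other. miR158a-3p had 83477, 220814 and 86746 CPM in prp4k3, against 101040, 111541 and 124258 CPM in Col-0. miR165a-3p, a guide of the joint miR165 and miR166 family, had 7807, 26162 and 10086 CPM in prp4k3, against 8964, 7745 and 9469 CPM in Col-0. Both were highest in that library of all 6. miR398b-3p, a copper-responsive guide, had 9610.5, 3613 and 10914 CPM in prp4k3, against 8826, 8313 and 9487 CPM in Col-0, and was lowest in that library. The TMM factor of prp4k3 replicate 2 was 0.657, against 1.19 in both other prp4k3 libraries. Results are given below with and without this library where it changes them.

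**Figure D1:**
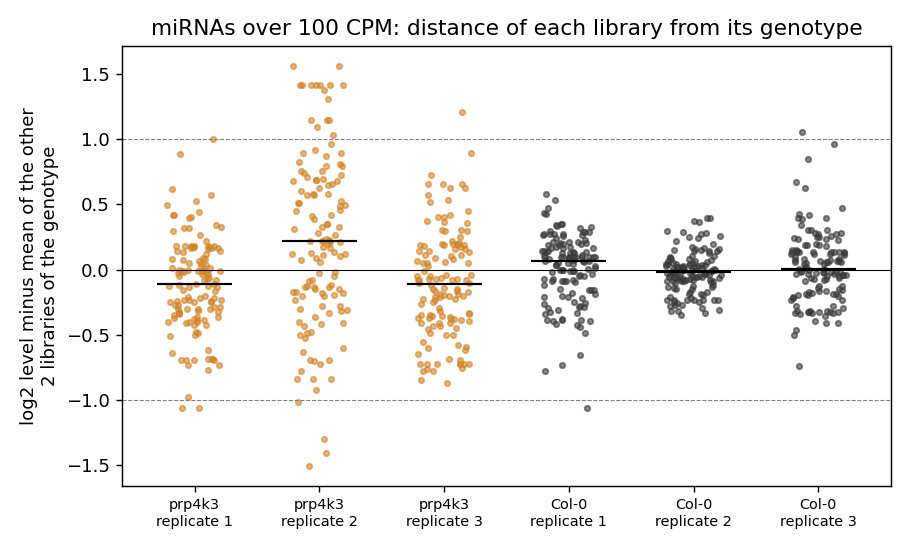
Distance of each small RNA library from the mean of the other 2 libraries of its genotype, on the log2 scale (y axis), for 130 miRNAs over 100 CPM. Points are miRNAs, short lines are medians and dashed lines mark 2-fold. prp4k3 replicate 2 has the widest spread, with 20 miRNAs past 2-fold.

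Mature miRNAs differed in both directions. The filter on low counts left 187 of 309 distinct rows, and the other 122 were not tested. edgeR's quasi-likelihood F-test called 70 rows at a Benjamini-Hochberg adjusted p under 0.05, or 37.4% of those tested. Of these 40 were higher in prp4k3 (21.4%) and 30 lower (16%). More than 2-fold differences were found for 25 called rises and 20 called falls. The 3 libraries of prp4k3 lay all above or all below those of Col-0 in 110 rows, or 58.8%. The median log2 fold change over the 187 rows was 0.03, and -0.12 with upper-quartile scaling, which called 35 higher and 34 lower. Total-count scaling called fewer of the 187, 28 higher and 23 lower. With that library left out there were 49 higher and 52 lower among 211 tested rows, and 64 of the 70 calls were shared, each with the same direction. With near-identical rows kept once, 45 were higher and 24 lower. The authors' deposited table called 81 of 367 rows at an adjusted p under 0.05, with 45 higher and 36 lower. Those 81 correspond to 74 distinct rows, and 49 of them were also called here, all in the same direction.

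**Figure D2:**
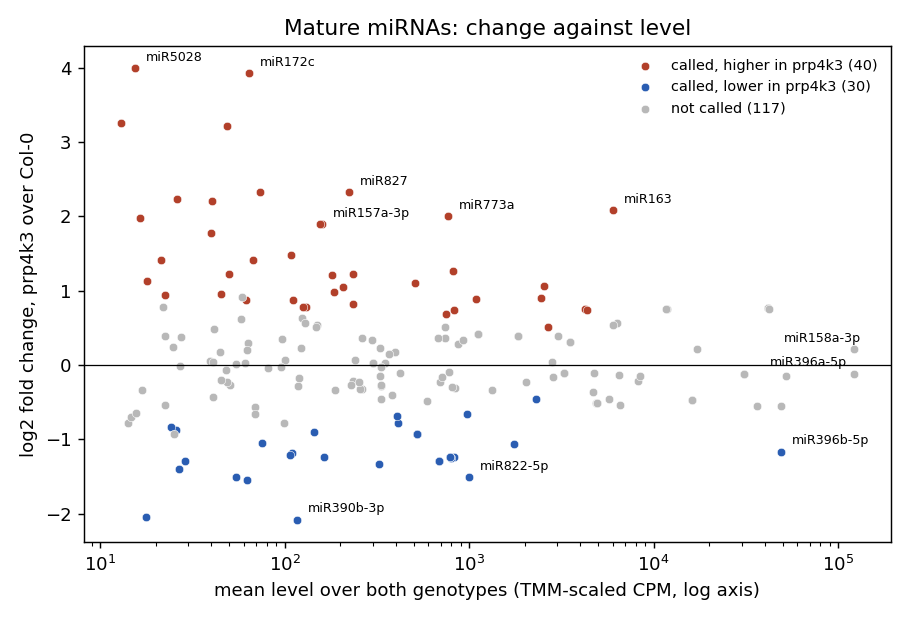
Log2 fold change of prp4k3 over Col-0 (y axis) against mean level in TMM-scaled CPM (log x axis) for 187 tested miRNA rows. Coloured points passed the test, 40 higher and 30 lower in prp4k3; the abundant miR396a-5p and miR158a-3p lie near 0, while miR396b-5p lies at -1.16.

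The largest called rises were miRNAs of low to middle abundance, with miR163 the most abundant of them. All 3 prp4k3 libraries lay above all Col-0 libraries in each of these 10 rows, which the choice of rows required, and the adjusted p was at most 0.00276. miR163, which targets methyltransferase genes of the SABATH family, had 8936, 13552 and 6858 CPM in prp4k3, against 1521, 1989.8 and 3396 CPM in Col-0 (log2 fold change 2.09 ± 0.35). miR827, a phosphate-responsive miRNA directed at the ubiquitin ligase gene NLA, had 287, 563 and 265 CPM in prp4k3, against 72.7, 72.2 and 77.5 CPM in Col-0. Its highest level was in prp4k3 replicate 2, and its log2 fold change was 2.33 ± 0.30. miR773a, directed at the DNA methyltransferase gene MET2, had 1319.7, 1154 and 1194 CPM in prp4k3, against 334, 294 and 287 CPM in Col-0. Its libraries lay close together within each genotype, and its log2 fold change of 2.002 ± 0.15 had the lowest adjusted p of all rows (3.56e-05).

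The row of miR172c, identical to that of miR172d-3p, belongs to the family that represses AP2-like flowering repressors and had 79, 33 and 29 counts in prp4k3, against 2, 6 and 15 counts in Col-0. These were 199, 80.0 and 83.4 CPM in prp4k3, against 1.77, 7.34 and 14.5 CPM in Col-0, a log2 fold change of 3.93 ± 0.57. The row was low in every Col-0 library and varied there. Flower markers also moved with genotype in the RNA-seq libraries, at the summed levels given above, and their part in this result was not tested. miR2112-5p had 52.9, 143 and 69.0 CPM in prp4k3, against 10.6, 8.57 and 8.72 CPM in Col-0 (log2 fold change 3.22 ± 0.42). miR845a, from a family whose members match primer-binding sites of retrotransposons, had 27.7, 60.6 and 40.3 CPM in prp4k3, against 10.6, 8.57 and 7.75 CPM in Col-0 (log2 fold change 2.23 ± 0.36). Both stood above Col-0 in every prp4k3 library.

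The remaining large rises were at low levels in Col-0. miR5028 had 16, 10 and 8 counts in prp4k3, against 1, 0 and 4 counts in Col-0 (log2 fold change 3.99 ± 0.60), so its Col-0 level lies near the floor. miR866-3p had 5, 18 and 5 counts in prp4k3, against 2, 1 and 4 counts in Col-0 (log2 fold change 3.26 ± 0.63), with its highest count in prp4k3 replicate 2. miR5637 had 111, 150.3 and 104 CPM in prp4k3, against 27.5, 31.8 and 13.6 CPM in Col-0, a log2 fold change of 2.33 ± 0.32. miR5651 had 93.2, 58.2 and 48.9 CPM in prp4k3, against 19.5, 12.2 and 10.7 CPM in Col-0, a log2 fold change of 2.21 ± 0.35. All 10 rises kept their call and direction in the 15 or 16 alternatives fitted to each, leaving out any library included.

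The largest called falls came mainly from miR169, miR822 and passenger strands of conserved families. The adjusted p of these 10 rows was at most 0.0217, and the rows were again chosen to lie apart by genotype. miR822-5p, the product of a young, long hairpin that is cut by DICER-LIKE4 and directed at DC1-domain genes, had 574, 378 and 601 CPM in prp4k3, against 1578, 1608 and 1214 CPM in Col-0 (log2 fold change -1.50 ± 0.21). Its partner miR822-3p had 22.7, 36.4 and 25.9 CPM in prp4k3, against 92.2, 73.4 and 77.5 CPM in Col-0 (log2 fold change -1.51 ± 0.27). Both strands fell by nearly the same amount. miR390b-3p, the passenger of a guide that cuts TAS3 transcripts, had 42.8, 41.2 and 48.9 CPM in prp4k3, against 169.4, 193 and 199.5 CPM in Col-0 (log2 fold change -2.08 ± 0.22). Its guide, shared by miR390a-5p and miR390b-5p, had 2083, 1768 and 1959 CPM in prp4k3, against 2727, 2829 and 2411 CPM in Col-0 (log2 fold change -0.46 ± 0.16, adjusted p = 0.0435). The guide missed the threshold in 10 alternatives, among them removal of Col-0 replicate 1 (0.106), Col-0 replicate 2 (0.143), prp4k3 replicate 1 (0.0534, at a log2 fold change of -0.69) or prp4k3 replicate 3 (0.0612), and the replicate block (0.0935).

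miR169, which targets NF-YA transcription factor genes, supplied 3 of the 10. miR169a-3p had 5, 2 and 1 counts in prp4k3, against 40, 21 and 26 counts in Col-0 (log2 fold change -2.04 ± 0.45), so its prp4k3 level is near the floor. miR169h had 319.8, 507 and 362 CPM in prp4k3, against 1117, 962 and 831 CPM in Col-0 (log2 fold change -1.29 ± 0.21), and miR169k, near-identical to it, had 325, 509 and 362 CPM in prp4k3, against 1123, 967 and 834 CPM in Col-0 (log2 fold change -1.29 ± 0.21). All 12 tested rows of the family were called lower, against a background of 16%, and their log2 fold changes had a median of -1.24 and a range of -2.04 to -0.89. With near-identical rows kept once these were 7 of 7, and all were also lower under each scaling tried. Without prp4k3 replicate 2, 14 rows were tested and lay below 0, and 12 of them were called lower. The summed family had 5029 ± 1109.6 CPM in prp4k3 and 11101 ± 1207 CPM in Col-0 (SD, n = 3; log2 fold change -1.14 ± 0.19, adjusted p = 0.00156). Reads of its near-identical rows may enter that sum more than once.

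miR157c-3p, a passenger of the SPL-directed miR157 family, had 204, 162.5 and 189.9 CPM in prp4k3, against 509, 460.1 and 423 CPM in Col-0 (log2 fold change -1.32 ± 0.18). miR171b-5p, passenger of a guide directed at scarecrow-like HAM genes, had 27.7, 36.4 and 31.6 CPM in prp4k3, against 140.1, 84.4 and 56.2 CPM in Col-0 (log2 fold change -1.55 ± 0.39). The last 2 falls were at low levels. miR5654-3p had 12.6, 14.5 and 17.3 CPM in prp4k3, against 50.5, 36.7 and 29.1 CPM in Col-0 (log2 fold change -1.39 ± 0.35), and miR3932b-5p had 5, 4 and 10 counts in prp4k3, against 43, 30 and 49 counts in Col-0 (log2 fold change -1.30 ± 0.38). miR3932b-5p missed the threshold with prp4k3 replicate 1 left out (0.062) and with total-count scaling (0.0574), and its log2 fold change was -2.05 without prp4k3 replicate 3. The other 9 falls kept their call and direction in each alternative fitted.

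**Figure D3:**
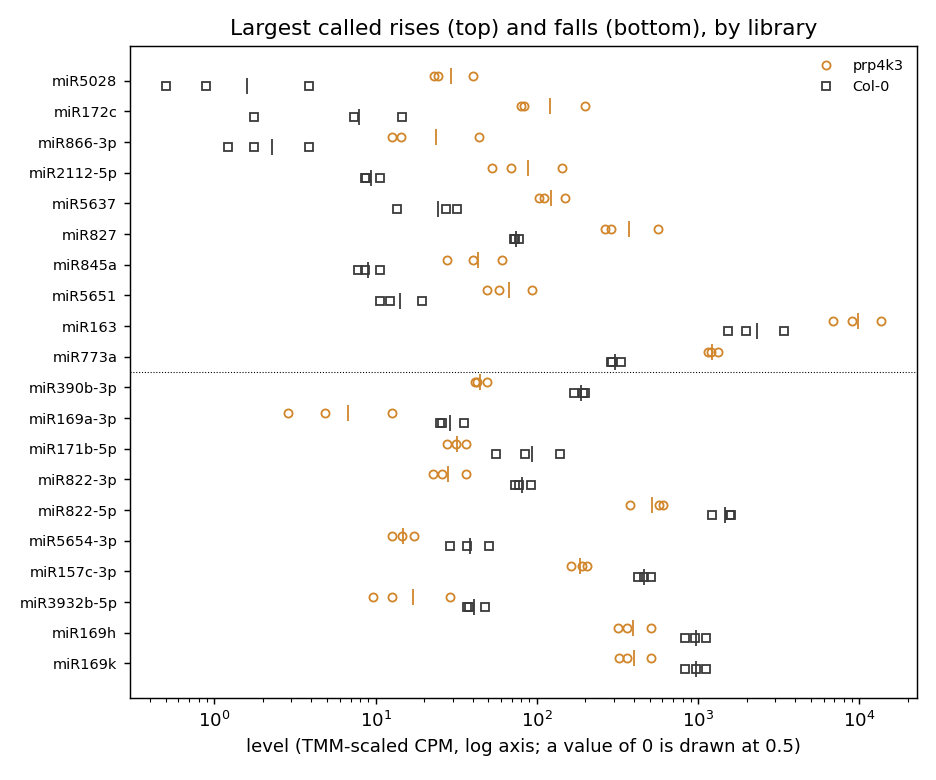
Level in each library (TMM-scaled CPM, log x axis) of the 10 largest called rises, above the dotted line, and the 10 largest called falls, below it. Circles are prp4k3 libraries, squares are Col-0 libraries and short bars are means of 3; prp4k3 and Col-0 libraries do not overlap in any of the 20 here.

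Most of the counts came from 10 rows, of which 1 was called. The share of counts held by the 10 most abundant rows was 56.6, 62.3 and 55.6% in prp4k3, against 59.5, 58.1 and 58.9% in Col-0. Their sum did not differ beyond the spread between libraries (two-sided exact permutation p = 0.9, where 3 against 3 cannot give less than 0.1), and the sign of the difference of -0.67 percentage points turned without prp4k3 replicate 1 (0.10) or replicate 3 (0.62). Without prp4k3 replicate 2 the difference was -2.74 percentage points, with both remaining prp4k3 shares below every Col-0 share (two-sided exact permutation p = 0.1). Of the 10, 5 were near-identical rows of miR166, which represses HD-ZIP III genes of leaf polarity. With such rows kept once, the 10 most abundant held 73.6, 80.4 and 73.5% in prp4k3, against 79.8, 79.7 and 79.9% in Col-0. miR396a-5p, a guide directed at growth-regulating factor (GRF) genes, had 98555, 159615 and 92818 CPM in prp4k3, against 142635, 126515 and 110425 CPM in Col-0 (log2 fold change -0.11 ± 0.30, adjusted p = 0.777). miR158a-3p, whose levels are given above, lay at 0.22 ± 0.40 (adjusted p = 0.681). Leaving that outlying prp4k3 library out, both were called lower, at -0.42 (adjusted p = 0.000813) for miR396a-5p and -0.41 (adjusted p = 0.000771) for miR158a-3p, so the direction of miR158a-3p rests on 1 library.

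miR159, which represses GAMYB-like genes, gave 2 of the abundant rows. miR159a had 53495, 46819 and 48592 CPM in prp4k3, against 55004, 48866 and 61606 CPM in Col-0 (log2 fold change -0.15 ± 0.23, adjusted p = 0.623). miR159b-3p had 41411, 37563 and 40900.3 CPM in prp4k3, against 62708, 50818 and 61638 CPM in Col-0 (log2 fold change -0.55 ± 0.23, adjusted p = 0.0882), with all 3 prp4k3 values below Col-0. It was called lower without prp4k3 replicate 2 (-0.52, adjusted p = 0.000118), with DESeq2 (-0.63, adjusted p = 0.00272) and with identical rows all kept (-0.65, adjusted p = 0.0437). miR166a-3p had 34463, 90970.4 and 33965 CPM in prp4k3, against 32719.7, 28099.8 and 33353 CPM in Col-0 (log2 fold change 0.76 ± 0.39, adjusted p = 0.142), and the rows of miR166c, miR166e-3p, miR166f and miR166g lay at 0.76 as well. The median of the 9 miR166 rows was 0.76 with all libraries and 0.12 without prp4k3 replicate 2, where 1 was called higher.

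The exception among the abundant rows was miR396b-5p, which had 27136, 32779 and 31272 CPM in prp4k3, against 65374, 65970 and 73006 CPM in Col-0 (log2 fold change -1.16 ± 0.23, adjusted p = 0.00305). No library of one genotype overlapped the other. The ratio of miR396b-5p to miR396a-5p counts was 0.275, 0.205 and 0.337 in prp4k3, against 0.458, 0.521 and 0.661 in Col-0. That ratio and that of miR159b-3p to miR159a, which was 0.774, 0.802 and 0.842 in prp4k3, against 1.14, 1.04 and 1 in Col-0, were chosen after their values were seen. Both ratios were lower in all 3 prp4k3 libraries (two-sided exact permutation p = 0.1, the smallest that 3 against 3 allows).

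Guides that regulate the miRNA machinery itself were read, together with their passengers, as a list of miR162, miR168, miR403 and miR838. Of 9 tested rows 4 were called higher and 0 lower (44.4%, against 37.4% of all rows), with a median of 0.22 against 0.03 over all rows. The 4 were the rows of miR168, which targets AGO1. miR168b-5p had 4916, 5589 and 5428 CPM in prp4k3, against 3129, 3067 and 3249 CPM in Col-0 (log2 fold change 0.75 ± 0.16, adjusted p = 0.00433). It was near-identical to miR168a-5p, and it missed the threshold with prp4k3 replicate 1 left out (0.0571) and with total-count scaling (0.0705). The passenger miR168a-3p had 2931, 4125 and 3302 CPM in prp4k3, against 1349.5, 1648 and 1963 CPM in Col-0 (log2 fold change 1.06 ± 0.20), and miR168b-3p had 1131, 1065 and 1266 CPM in prp4k3, against 325, 432 and 675 CPM in Col-0 (log2 fold change 1.27 ± 0.25). Summed, miR168 had 15379 ± 1230.1 CPM in prp4k3 and 8547 ± 631 CPM in Col-0 (SD, n = 3; log2 fold change 0.85 ± 0.16, adjusted p = 0.00219). miR162, directed at DCL1, summed to 27089.7 ± 3782 CPM in prp4k3 and 37497 ± 1421 CPM in Col-0 and lay at -0.47 ± 0.18 on the log2 scale, short of the threshold (adjusted p = 0.0728). Its rows miR162a-3p and miR162b-3p are near-identical, so that sum may hold the same reads more than once, as may the sum of miR168. The list had 4 higher and 3 lower without prp4k3 replicate 2, and 2 higher and 0 lower with total-count scaling. With upper-quartile scaling it had 4 higher and 2 lower, and a median of 0.01.

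In the phase change and flowering list of miR156, miR157 and miR172, 5 of 19 rows were called higher and 1 lower (31.6%, against 37.4% of all rows), with a median of -0.03. The passenger miR157a-3p, identical to miR157b-3p, had 249, 216 and 285 CPM in prp4k3, against 69.2, 69.8 and 62.0 CPM in Col-0 (log2 fold change 1.90 ± 0.20, adjusted p = 0.000269). It rose while miR157c-3p fell, and miR157 was the only family of 43 with more than 1 tested row that had called rows in both directions. The other rises in the list were miR172b-5p (0.75), miR172c, miR172e-5p (0.68) and miR156h (0.94). The abundant miR156 guide, kept under the name miR156a-5p, had 4236, 2643 and 5264 CPM in prp4k3, against 6022, 5552 and 5719.9 CPM in Col-0 (log2 fold change -0.51 ± 0.24, adjusted p = 0.127). All 5 tested rows of miR172 lay above 0 under each scaling, and 3 of them were called, against 1 with total-count scaling. Over the whole list of 19 rows, 4 were higher and 3 lower with prp4k3 replicate 2 left out. The flower markers of the RNA-seq libraries also differed between genotypes. Scaled by total counts they summed to 2.12 to 8.61 CPM in prp4k3 and 0.273 to 0.620 CPM in Col-0. Any part of that difference in the calls of this list was not tested.

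In the leaf growth and polarity list of miR164, miR165, miR166, miR319 and miR396, 0 of 22 rows were called higher and 2 lower (9.09%, against 37.4%). The median was 0.45, and 0.13 with near-identical rows such as those of miR166 kept once, where 2 were higher and 2 lower of 14. There were 5 higher and 4 lower of 24 without prp4k3 replicate 2. The falls were miR396b-5p and its passenger miR396b-3p, which had 669.9, 921 and 673 CPM in prp4k3, against 1141, 1197 and 1232 CPM in Col-0 (log2 fold change -0.66 ± 0.17, adjusted p = 0.0116). In the auxin list of miR160, miR167, miR390 and miR393, 1 of 14 rows was higher and 3 lower (28.6%, near the 37.4% of all rows), with a median of -0.11. There were 4 and 5 of 15 without that library.

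miR393a-3p, the passenger of a guide for TIR1 and AFB auxin receptor genes, had 207, 349 and 196 CPM in prp4k3, against 96.6, 124 and 107 CPM in Col-0 (log2 fold change 1.21 ± 0.26, adjusted p = 0.00433). It was higher in every prp4k3 library. miR160c-3p, the passenger of a guide for ARF genes, had 37.8, 58.2 and 51.8 CPM in prp4k3, against 122, 114 and 68.8 CPM in Col-0 (log2 fold change -1.04 ± 0.31, adjusted p = 0.0227), and lost its call without Col-0 replicate 1 (0.0706) or Col-0 replicate 2 (0.0546). In the list of tasiRNA triggers, miR173, miR390 and miR828, 0 of 6 rows were higher and 2, both of miR390, were lower (33.3%, against 37.4% of all rows), with a median of -0.08. With near-identical rows kept once miR390b-3p alone was called there.

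Nutrient lists were mixed. Among copper-responsive miRNAs, miR397, miR398, miR408 and miR857, 3 of 9 rows were called higher and 1 lower (44.4%, against 37.4% of all rows), with a median of -0.14 that was 0.20 without prp4k3 replicate 2. With upper-quartile or total-count scaling 1 of the 9 was called higher. miR398a-3p, directed at copper/zinc superoxide dismutase genes, had 80.6, 50.9 and 77.7 CPM in prp4k3, against 31.0, 31.8 and 26.1 CPM in Col-0 (log2 fold change 1.22 ± 0.26, adjusted p = 0.00436), and miR398a-5p had 179, 143 and 175 CPM in prp4k3, against 95.8, 88.1 and 105 CPM in Col-0 (log2 fold change 0.78 ± 0.20, adjusted p = 0.0131). The call of miR398a-3p was lost without prp4k3 replicate 1 (adjusted p = 0.0733) or replicate 3 (0.0571), and after thinning every library to the smallest total (0.0511). The call of miR398a-5p was lost when any library other than prp4k3 replicate 2 was left out (adjusted p between 0.0526 and 0.124). miR397a, directed at laccase genes, had 80.6, 33.9 and 86.3 CPM in prp4k3, against 163, 161.5 and 129.8 CPM in Col-0 (log2 fold change -1.19 ± 0.31, adjusted p = 0.0139), and lost its call without Col-0 replicate 1 (0.0526) or under total-count scaling (0.0726). The third rise was miR408-5p, at 0.51 ± 0.17. The more abundant rows of miR398 and miR397 were not called. miR398b-3p, whose levels are given above, lay at -0.14 ± 0.35 (adjusted p = 0.76), and summed miR398 at -0.12 ± 0.32 (adjusted p = 0.777). miR397b averaged 4851 CPM in prp4k3 and 6623 CPM in Col-0 (log2 fold change -0.45 ± 0.28, adjusted p = 0.217). In the phosphate, sulfate and nitrogen list 1 of 5 rows was higher, miR827, and 1 lower (40%, against 37.4% of all rows). The lower row, miR395b, directed at ATP sulfurylase genes, had 309.8, 259 and 337 CPM in prp4k3, against 499, 534 and 521 CPM in Col-0 (log2 fold change -0.78 ± 0.16, adjusted p = 0.0041, and 0.0804 under total-count scaling).

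Lists of other targets held 2 or 3 tested rows each, too few to set against the 37.4% called over all rows. miR400, directed at pentatricopeptide repeat (PPR) genes, had 307, 291 and 331 CPM in prp4k3, against 600.3, 487 and 407.7 CPM in Col-0 (log2 fold change -0.69 ± 0.19, adjusted p = 0.0159), the 1 of 3 rows called in the PPR list, and lost its call without Col-0 replicate 1 (0.0552) or under total-count scaling (0.102). All 3 rows of that list were called lower without prp4k3 replicate 2. miR472-5p, partner of a guide for NLR immune receptor genes, had 141, 209 and 129 CPM in prp4k3, against 96.6, 90.6 and 91.0 CPM in Col-0 (log2 fold change 0.79 ± 0.23, adjusted p = 0.0239). It was 1 of 3 rows in the immune receptor list, and its call was lost without any single Col-0 library (adjusted p between 0.0601 and 0.0748), without prp4k3 replicate 1 (0.0602), with a replicate block (0.0531) and after thinning every library to the smallest total (log2 fold change 0.47, adjusted p = 0.171). In the list of DICER-LIKE4 products both tested rows, those of miR822, were called lower. Without prp4k3 replicate 2 that list had 3 tested rows, of which 1 was called higher and 2 lower.

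By conservation, 13 of 99 tested rows in the list of deeply conserved families were called higher and 22 lower, and the median log2 fold change was -0.14. The list held 117 of the 309 distinct rows. Among rows outside the list, 27 of 88 tested were higher and 8 lower, with a median of 0.23, and 192 such rows had a count. Over all rows the shares called were 21.4% higher and 16% lower. Both medians kept their sign under each scaling tried, but total-count scaling called 6 higher and 18 lower in the conserved list and 22 and 5 outside it. With near-identical rows kept once the counts were 15 higher and 16 lower of 77 in the conserved list and 30 and 8 of 87 outside it. Without prp4k3 replicate 2 they were 22 and 34 of 104, and 27 and 18 of 107. Within the second class, the miRNAs with the highest numbers, from miR1886 on, had 13 higher and 3 lower of 32 tested (median 0.38), and 13 and 6 of 43 (median 0.16) without prp4k3 replicate 2. A row of low level passes the filter through the genotype in which it is higher, and the 2 classes differ in level.

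Counts summed by miRNA number gave 94 tested families of 163 with a count, of which 32 were called (34%), 23 higher (24.5%) and 9 lower (9.57%). These were 26 and 20 without prp4k3 replicate 2. The 6 rises with the lowest p were miR773, miR827, miR5637, miR5028, miR5024 and miR5651. miR5024 had 30.3 ± 1.28 CPM in prp4k3 and 6.92 ± 2.19 CPM in Col-0 (log2 fold change 2.14 ± 0.33), and the other 5 are the single rows given above. Besides miR822, miR169 and miR400, the called falls with the lowest p were miR3932, miR847 and miR5654. miR847 had 96.3 ± 42.7 CPM in prp4k3 and 228 ± 23.3 CPM in Col-0 (log2 fold change -1.24 ± 0.28, and -1.86 without prp4k3 replicate 1). The summed miR3932 had 22.7 ± 6.96 CPM in prp4k3 and 55.8 ± 5.53 CPM in Col-0 (log2 fold change -1.30 ± 0.28). Of the 12, all but miR400 kept their call in each of 12 alternatives.

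The 5p and 3p products of a precursor were compared next. The table lists both for 93 precursors. In 26 an arm had fewer than 10 counts over 6 libraries, 16 others shared an arm row with another precursor, and 51 were tested. Of these, 27 had more 5p counts and 24 more 3p counts. In 13 of the 51 an arm row was near-identical to another row of the same miRNA number, among them miR165a, miR166e, miR167a, miR168a and miR171b. Rows of different numbers were not compared in that count. The 5p rows of miR170 and miR171a, outside the 13, both had 94, 196 and 68 counts in prp4k3. In Col-0 they had 364, 214 and 318 counts for miR170 and 365, 214 and 318 counts for miR171a. The arm ratios of all these precursors may therefore not be those of a single precursor. The test asked whether the fold change of the minor arm differed from that of the major arm within the same libraries. Of 51, 2 were called (3.92%), 1 with its minor arm relatively higher and 1 with it lower (1.96% each), and 8 had an unadjusted p under 0.05. The minor arm moved up relative to the major arm in 27 precursors and down in 24, with a median difference of 0.06 on the log2 scale. The share of the minor arm did not overlap between genotypes in 11 precursors (21.6%). Both arms were also tested singly in 34 precursors, of which 10 had both arms called in 1 direction, 0 had them called in opposite directions, 8 had 1 arm called and 16 had none.

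The 5p share of miR2112 counts, its minor arm over all libraries, was 44.7, 65.6 and 64.9% in prp4k3, against 25.0, 21.2 and 23.1% in Col-0. The 5p arm rose by 2.23 ± 0.44 relative to the 3p arm on the log2 scale (adjusted p = 0.0291), and both arms were called higher singly. The 3p share of miR157c counts was 2.67, 2.16 and 2.26% in prp4k3, against 5.65, 4.86 and 4.45% in Col-0, and its 3p arm differed by -1.11 ± 0.24 from the 5p arm (adjusted p = 0.0291). Its guide miR157c-5p had 7429, 7342 and 8219 CPM in prp4k3, against 8504, 9008 and 9094 CPM in Col-0 (log2 fold change -0.21 ± 0.18, adjusted p = 0.36). Both arm calls depended on the fit. limma on the log2 arm ratio called 0 of 51, with 6 at an unadjusted p under 0.05, and gave an adjusted p of 0.0547 for miR2112 and 0.116 for miR157c. edgeR with a replicate block also called 0, with 7 at an unadjusted p under 0.05. miR2112 kept its call only without prp4k3 replicate 1, and miR157c only without prp4k3 replicate 2, among the 6 libraries left out in turn, with adjusted p up to 0.145 and 0.235.

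Several abundant precursors showed no called difference between arms. For miR396b the 3p share was 2.41, 2.73 and 2.11% in prp4k3, against 1.72, 1.78 and 1.66% in Col-0 (difference 0.50 ± 0.24, adjusted p = 0.274). For miR396a it was 1.89, 1.23 and 1.84% in prp4k3, against 1.76, 1.67 and 1.66% in Col-0 (difference -0.06 ± 0.28, adjusted p = 0.909). For miR168a it was 36.6, 41.9 and 37.1% in prp4k3, against 29.4, 34.1 and 36.8% in Col-0 (difference 0.32 ± 0.23, adjusted p = 0.535). The genotypes overlapped for miR396a and did not for miR396b, and for miR168a the lowest prp4k3 share lay below the highest Col-0 share. For miR822 the 3p share was 3.80, 8.77 and 4.13% in prp4k3, against 5.52, 4.37 and 5.997% in Col-0 (difference 0.02 ± 0.50, adjusted p = 0.968). For miR158a the 5p share was 1.04, 0.391 and 0.861% in prp4k3, against 0.644, 0.569 and 0.509% in Col-0 (difference 0.31 ± 0.39, adjusted p = 0.701), and the difference was 0.73 (adjusted p = 0.0137) without prp4k3 replicate 2. Other named precursors lay at -0.87 ± 0.38 (miR165a), -0.24 ± 0.25 (miR408), 0.06 ± 0.38 (miR167a), -0.24 ± 0.36 (miR166e), 0.21 ± 0.51 (miR159b), -1.20 ± 0.50 (miR171b), -1.15 ± 0.55 (miR169a), -1.31 ± 1.11 (miR866) and 0.48 ± 1.47 (miR5654), each for minor minus major arm, and none was called.

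**Figure D4:**
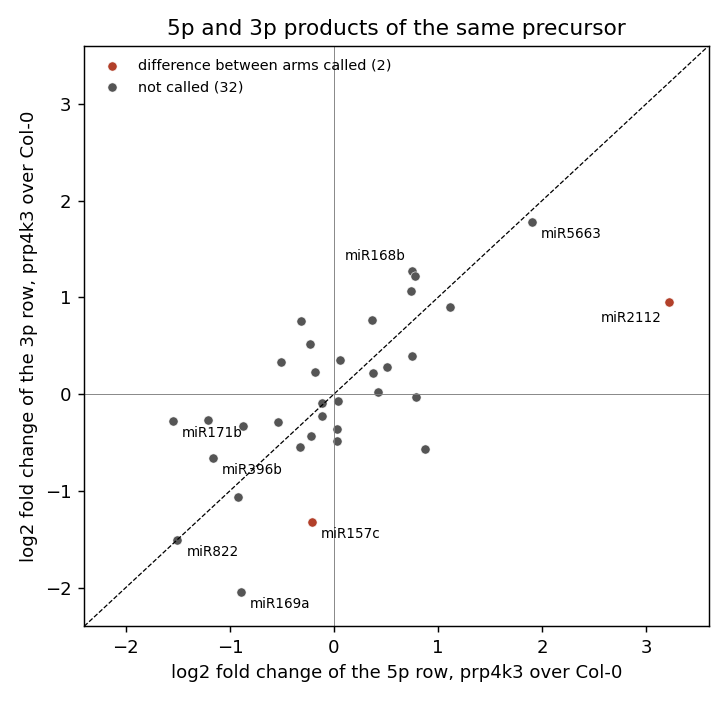
Log2 fold change of the 3p row (y axis) against that of the 5p row (x axis), prp4k3 over Col-0, for the 34 precursors with both arms tested singly. The dashed line marks equal change; the 2 precursors with a called difference, miR2112 and miR157c, are coloured and lie below it.

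Precursors that share an arm row were fitted as an alternative, which gave 6 calls. The additional calls were miR157a and miR157b, whose rows are identical in both arms and which count as 1, miR390b and miR393a. The 3p share of miR157a/b was 3.95, 3.59 and 4.02% in prp4k3, against 1.05, 1.004 and 0.879% in Col-0, and the 3p arm rose by 2.02 ± 0.22 relative to the 5p arm (adjusted p = 0.000548). The 3p share of miR390b was 2.01, 2.28 and 2.44% in prp4k3, against 5.85, 6.40 and 7.64% in Col-0 (difference -1.62 ± 0.24, adjusted p = 0.0029). The 3p share of miR393a was 19.6, 36.1 and 21.4% in prp4k3, against 9.61, 12.4 and 10.8% in Col-0 (difference 1.47 ± 0.34, adjusted p = 0.0298). In each the genotypes lay apart. The 5p reads of miR390b and miR393a also count under miR390a and miR393b, so their ratio is not that of a single precursor.

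Some precursors give more than 1 mature product from neighbouring positions. miR161.1, directed at PPR genes, had 28504, 28485 and 31741 CPM in prp4k3, against 43933, 43868 and 41997 CPM in Col-0 (log2 fold change -0.55 ± 0.21, adjusted p = 0.0671), and miR161.2 had 2524, 3392 and 2204 CPM in prp4k3, against 2769, 3299 and 2984 CPM in Col-0 (log2 fold change -0.16 ± 0.20, adjusted p = 0.541). miR161.1 lay lower in all 3 prp4k3 libraries, and miR161.2 overlapped. Summed miR161 was called lower (log2 fold change -0.52 ± 0.17, adjusted p = 0.03995), as was miR161.1 with near-identical rows kept once. miR779.2 rose by 0.88 ± 0.25 (adjusted p = 0.0194) and miR1886.2 by 0.82 ± 0.26 (adjusted p = 0.0315).

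Transcripts of MIR genes were set beside their mature products. RefSeq (TAIR10.1) symbols identified 178 MIR loci in the RNA-seq table, 99 with a count and 18 that passed the filter. Of these 18, 17 were called lower and 0 higher, and their median log2 fold change was -1.30, where 65.8% of 18609 RNA-seq features were called, 33.9% higher and 31.9% lower. A locus of few counts passes the filter through the genotype in which it is higher, as MIR169a and MIR822 did through Col-0. The count of 17 is therefore not a measure over all MIR loci, and the other loci with a count were not tested. Under total-count scaling, where the median of all features was 0.86 instead of 0.02, 7 MIR transcripts were lower and 1 higher. For 17 of the 18 at least 1 mature row was tested. Among the 26 distinct mature rows of these genes, 6 were called lower and 2 higher.

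Transcript and at least 1 product were both called lower for MIR169a, MIR822, MIR157c and MIR169k. MIR822 transcripts had 4, 7 and 6 counts in prp4k3, against 34, 26 and 21 counts in Col-0 (log2 fold change -2.88 ± 0.34), beside -1.50 for miR822-5p and -1.51 for miR822-3p. MIR157c transcripts had 16, 17 and 17 counts in prp4k3, against 55, 75 and 46 counts in Col-0 (log2 fold change -2.46 ± 0.23), beside -0.21 for the guide and -1.32 for the passenger. MIR169a transcripts had 4, 2 and 5 counts in prp4k3, against 17, 23 and 21 counts in Col-0 (log2 fold change -3.08 ± 0.35), beside -0.89 for miR169a-5p and -2.04 for miR169a-3p. MIR169k lay at -1.70 ± 0.34, beside -1.29 for miR169k. Under total-count scaling MIR157c lay at -1.63 and MIR169k at -0.87, both still called.

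MIR163 was the gene whose transcript and product were called in opposite directions. Its transcript had 17.2, 18.8 and 13.6 CPM in prp4k3, against 23.4, 32.6 and 21.3 CPM in Col-0 (log2 fold change -0.64 ± 0.18, adjusted p = 0.0104), while mature miR163 rose by 2.09 ± 0.35. Under total-count scaling the transcript lay at 0.20 (adjusted p = 0.356). MIR172a transcripts were at -1.24 ± 0.36 beside 0.39 for the mature miR172a row, and MIR166a at -1.41 ± 0.53 beside 0.76 for miR166a-3p, whose reads are shared with other loci. MIR172a missed the threshold when Col-0 replicate 1 was left out (0.0644), and MIR166a when prp4k3 replicate 1 (0.102), prp4k3 replicate 2 (0.0603) or Col-0 replicate 2 (0.0796) was. Both also missed it with DESeq2 (0.0505 for MIR172a and 0.077 for MIR166a) and under total-count scaling. MIR159a (-1.36 ± 0.31), MIR398b (-1.01 ± 0.18) and MIR398c (-1.02 ± 0.12) transcripts were called lower beside mature rows at -0.15 and -0.14, and lost their calls under total-count scaling. MIR408 was not called (0.08 ± 0.25, adjusted p = 0.804). The 2 assays were scaled separately and used different libraries, so the sizes of change are set side by side without a test.

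**Figure D5:**
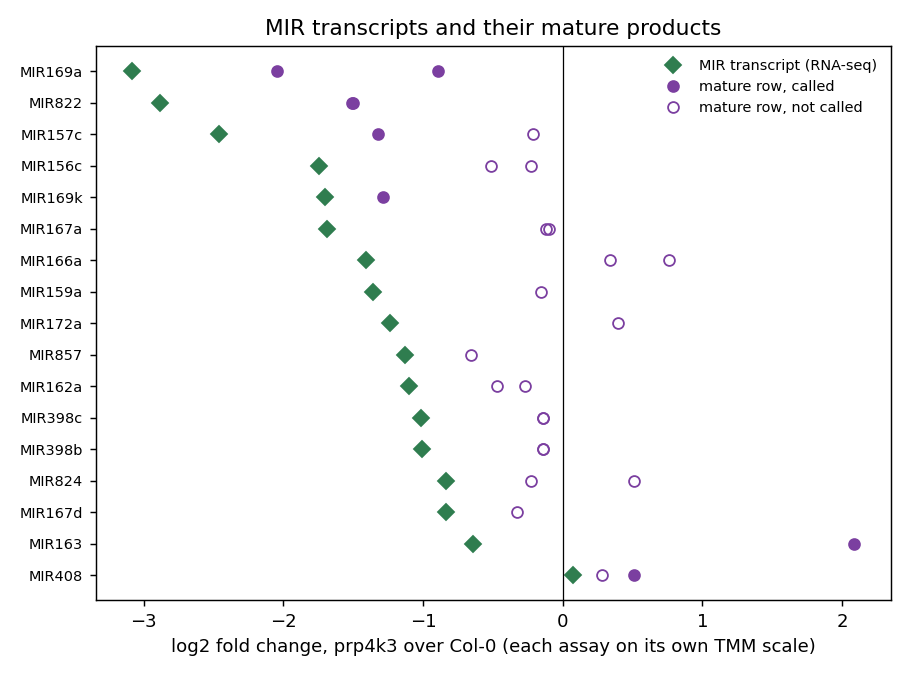
Log2 fold change, prp4k3 over Col-0, of MIR transcripts in RNA-seq (diamonds) and of their tested mature rows in small RNA-seq (circles, filled where called) for 17 MIR genes. Diamonds lie below 0 for every gene but MIR408, while mature rows lie on both sides of 0, with miR163 at 2.09. Under total-count scaling the MIR163 diamond would lie at 0.20.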

How the data were processed

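Small RNA-seq and RNA-seq libraries of prp4k3 and Col-0 leaves, 3 of each, were read from the whole-series tables. Their values are raw counts per miRNA or gene, per the file headers. TopHat2, SAMtools, HTSeq and edgeR are named in the submitters' processing notes, and the genome build is not given in the sources used here. The authors' scaled values, rounded to whole numbers and treated as a score, were deposited beside them and not used. The authors' deposited p-values and log2 fold changes were used only to compare calls. Rows with identical counts were kept once, low rows were removed with filterByExpr, libraries were scaled by TMM, and prp4k3 was tested against Col-0 with edgeR 4.0.16 (R 4.3.3) by its quasi-likelihood F-test with Benjamini-Hochberg adjustment at 0.05. Families were counts summed over the distinct rows of a miRNA number, near-identical rows included. Arms were tested as an interaction of arm and genotype within libraries, for precursors with at least 10 counts in each arm. DESeq2 1.42.0 and limma 3.58.1 gave alternatives. The fits were tested on simulated data. The text names the 10 called rises and 10 called falls of greatest size whose libraries did not overlap by genotype and that averaged 10 CPM or more in the higher one, the 10 most abundant rows, and the called rows of lowest p in each list. The members, lists and rules were chosen with earlier results of these data known. No chi-square comparison of replicates found 2 libraries alike. Same-numbered prp4k3 and Col-0 libraries did not deviate together (correlations of -0.22 to -0.07 in small RNA-seq), so numbers were not used as pairs. MIR symbols came from RefSeq TAIR10.1. Depths are in the text, and counting intervals cover counting error only.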

Additional observations from a re-analysis of the deposited data

How the results depend on the processing

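Of the named miRNAs, 25 of 35 called ones kept their call and direction in each alternative fitted to them, as did 11 of 12 families. Leaving out 1 library in turn gave 54 to 101 called miRNAs, 28 to 49 higher and 22 to 52 lower, with the most without prp4k3 replicate 2, and 27 to 46 families, 6 to 20 of them lower. It gave 0 to 2 arm calls and differences of -2.74 to 0.62 percentage points in the share of the 10 most abundant miRNAs. A test against a 2-fold change called 14 miRNAs, 13 higher and 1 lower. Thinning to the smallest library called 26 higher, and keeping identical rows called 16 families lower. Arm calls were 6 with shared rows and 0 with limma or the replicate block. Total-count scaling called 8 MIR transcripts, 1 higher and 7 lower, and put PRP4KA at 0.16, PRP4KB at 0.43 and the MIR163 transcript at 0.20. With 1 library left out miR158a-3p lay between -0.41, without prp4k3 replicate 2, and 0.19. SE lay between 0.25 and 0.39 and PRP4KB between -0.55 and -0.28 with 1 library left out. The replicate block called 70 miRNAs, 43 higher and 27 lower, and 31 families. Same-numbered libraries correlated at -0.17, -0.22 and -0.07. The causes of these changes were not tested. With 3 libraries per genotype and 292856 to 1114863 counts each over distinct rows, rows of a few counts carry the widest errors.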
